A study of Arabidopsis thaliana with 30 samples.

Results

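Root explants of Arabidopsis thaliana were compared at 24 h and at 12 h on callus-inducing medium, to describe which genes began to change in that interval, which went on changing and which turned back. The comparison uses the 3 root arrays at 24 h and the 3 root arrays at 12 h, picked by their titles, which make 6 of the 30 arrays of the series. The groups drawn on here are root explants at 24 h and at 12 h, the root explants at 0, 48 and 96 h around them, and aerial organ explants at 24 h and 12 h, with 3 arrays each. All are wild-type Columbia-0, cut from 10-day-old seedlings and, apart from the 0 h groups, kept on the same kind of medium, whose composition the sources used here do not give. The labels call the arrays biological replicates, but do not say how many plants were pooled for each, nor at what time of day explants were cut or harvested. Each value is a MAS5 signal, the background-corrected brightness of a probe set on a linear scale, and changes are differences of log2(signal + 22) ± standard error with n = 3 arrays a group. Because an array measures total RNA of a mixed tissue, fewer cells of a type and less RNA per cell cannot be told apart.

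Callus-inducing media hold a high ratio of auxin to cytokinin, and on them root explants do not dedifferentiate at random: cells of the pericycle next to the vascular strands divide in a way that resembles the first stages of a lateral root. Auxin acts through Aux/IAA repressors and ARF factors on early targets such as GH3 enzymes and LBD factors, after which founder cells swell, loosen their walls, make ribosomes and enter division. Genes for the mitotic apparatus are transcribed mainly in G2 and M phase, so their RNA is abundant where many cells cycle. Cutting and transfer also set off wound, heat-shock and jasmonate responses, which are commonly transient.

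Depth does not apply to arrays, and their number limits the precision. Median signal in the 6 arrays lay between 147.4 and 167.0, and the GAPDH controls gave a 3' signal over the 5' one (log2) of 0.526, 0.369 and 0.368 at 24 h, against 0.402, 0.351 and 0.394 at 12 h, so the groups overlapped. The root 12 h replicate 2 stood apart: it correlated with 12 h replicate 1 at r = 0.932 over tested probe sets, the lowest value of any pair of replicates in the series. The label was checked on the markers of leaf tissue, of which 4 of 11 were measured, and their summed signal was 226 to 318 in the 24 h root arrays and 272 to 375 in the 12 h root arrays, against at least 30980 in aerial explants at these times. The root hair expansins EXPA7 and EXPA18 together gave 363 to 1239 at 24 h and 896 to 2423 at 12 h in root explants, and at most 155 in aerial explants.

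Between 12 and 24 h, 828 of 16765 tested probe sets rose (4.94%) and 619 fell (3.69%) in root explants, at an adjusted p below 0.05 in limma. This is 1447 calls in all (8.63%), against 6250 (37.3%; 3645 higher and 2605 lower, or 2761 and 3205 after median centring) for 12 h against 0 h and 642 (3.83%) for 48 h against 24 h in the same fit. At least a 2-fold change was seen in 455 of the rises (2.71% of tested) and in 427 of the falls (2.55%). The median change of all tested probe sets was 0.02. Of the calls, 773 probe sets stand for 1 gene and 674 are unnamed here or stand for several, and 125 of 1267 genes with a symbol were called (9.87%), 64 upward and 61 downward. Values at 24 h and 12 h did not overlap for 1357 of the 1447 calls, and for 4730 of all tested probe sets (28.2%).

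How many probe sets were called depended on single arrays. There were 335 rises and 161 falls without root 12 h replicate 2, and 360 rises and 184 falls without root 24 h replicate 1. By contrast, 1039 rose and 886 fell without root 12 h replicate 1. Across the probe sets that rose, the median signal relative to the 12 h mean was 1.25, 0.96 and 0.97 (log2) in the 24 h arrays, against 0.20, -0.34 and 0.15 in the 12 h arrays, replicate 2 being the low one. Across those that fell it was -1.46, -1.11 and -1.07 at 24 h, against -0.30, 0.41 and -0.09 at 12 h. The 370 probe sets called in each of the 6 fits that leave out 1 of these arrays comprised 254 rises (1.52%) and 116 falls (0.692%).

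The 48 h and 0 h root arrays do not enter the difference of the step and give another reading of the same probe sets. All groups share a fit and its estimate of the spread, so the calls are not fully separate. Of the 828 that rose, 646 (78%) were also called higher at 48 h than at 0 h, where 31.6% of all tested probe sets were, and 17 were called lower. Of the 619 that fell, 464 (75%) were called lower at 48 h than at 0 h, against 19.7% of all tested, and 28 were called higher. The comparison of 48 h with 0 h also holds the change from 0 to 12 h, so it does not read this step alone. The shares differed by course, as given below. Median centring moved the calls of that comparison over all probe sets to 4077 higher and 4019 lower, against 5294 and 3310 without it. Seen from the other side, 12.2% of the probe sets higher at 48 h than at 0 h had risen in this step, and 14% of those lower had fallen in it.

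Called probe sets were sorted by their own change from 0 to 12 h. A start was not called in that earlier change, a continuation was called in the same direction, and a reversal was called in the opposite one. The 12 h arrays are shared, entering the earlier change with one sign and the step with the other, so an offset in the 12 h arrays by itself moves probe sets towards reversal. Starts were the most numerous, with 518 rises (3.09% of tested) and 250 falls (1.49%). Continuations were 135 rises (0.805%) and 217 falls (1.29%), and reversals were 175 rises (1.04%) and 152 falls (0.907%). For 188 of the starting rises and 63 of the starting falls, the step also differed by test from the earlier change, and for the others that difference was not called. Over all tested probe sets the step was called above the earlier change for 7.43% and below it for 9.07%, that is 1245 and 1521, but for 1540 and 1125 after median centring of the arrays and for 1282 and 1283 after quantile normalization. Median centring also gave 208 reversing rises and 116 reversing falls. The 5571 probe sets called in the earlier change but not in this step make up most of the early response.

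At the median, reversals stood close to their 0 h level at 24 h. Sorting by opposite signs around the shared 12 h arrays favours such a return by itself. The 175 that had been lowered at 12 h and then rose had a median of 1.16 in the step and -1.06 before it, and stood 0.10 above their 0 h level at 24 h. The 152 that had been raised at 12 h and then fell had a median of -1.20 in the step and 1.38 before it, which left them 0.15 above 0 h. Continuing falls had a median of -1.28 in the step and of -3.06 since 0 h, the largest total of the classes, which sorting by calls of the same sign favours. Called lower at 48 h than at 0 h were 100% of continuing falls, 86.8% of starting falls and 19.7% of reversing falls. Of all tested probe sets 19.7% were, and 18.4% of reversing falls were called higher. Called higher there were 98.5% of continuing rises, 82% of starting rises and 50.3% of reversing rises, against 31.6% of all tested. Leaving out root 12 h replicate 2, starting rises numbered 192 and falls 69, continuing rises 48 and falls 52, and reversing falls 40; reversing rises were fewest, at 94, without root 24 h replicate 1.

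**Figure D1:**
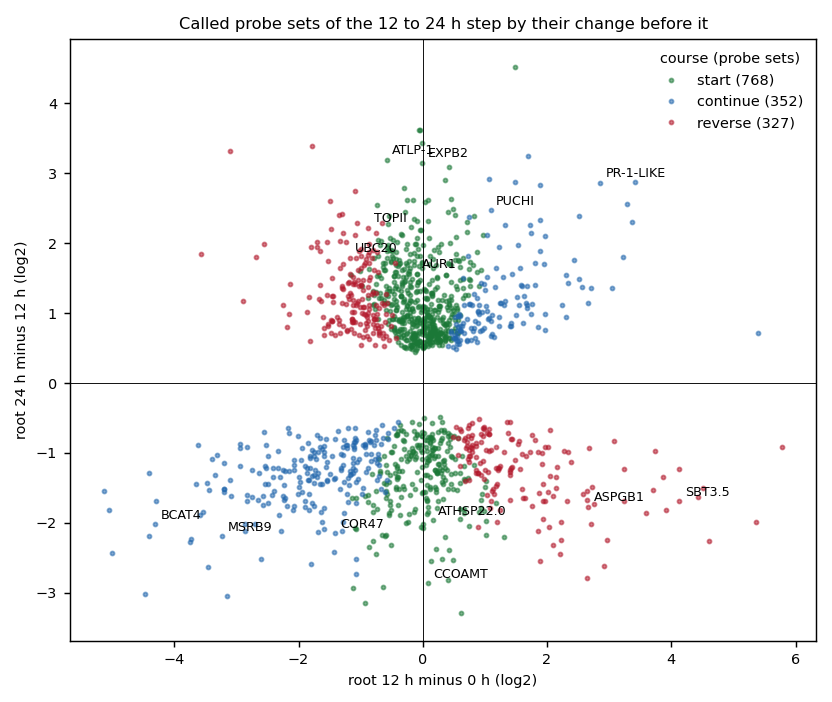
Each point is 1 of the 1447 called probe sets, with its root 12 h minus 0 h change on the x axis and its root 24 h minus 12 h change on the y axis, both in log2 units. The 768 starts lie mostly around 0 on the x axis, the 352 continuations in the upper right and lower left, and the 327 reversals in the upper left and lower right; TOPII and UBC20 are reversals upward, SBT3.5 and ASPGB1 reversals downward.

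Genes of chromosome handling and cell division rose. Of the 8 measured genes on a list of mitosis and cytokinesis genes, 6 rose and none fell, against 4.94% rising among all tested probe sets, and the median change was 1.32. The remaining 2, AUR3 (0.96, adjusted p = 0.0544) and 3xHMG-box1 (1.04, adjusted p = 0.136), were not called. Within the list, AUR1, an Aurora kinase of the mitotic spindle and cell plate, gave signals of 903, 795 and 651 at 24 h, against 400, 153 and 246 at 12 h. The groups did not overlap, and the change was 1.56 ± 0.242 (adjusted p = 1.01e-04). Its close relative AUR2 gave 320, 228 and 216 at 24 h, against 79.8, 36.4 and 55.4 at 12 h. Every 24 h array of AUR2 was above every 12 h array, by 1.82 ± 0.262 (adjusted p = 3.97e-05). AT4G14330, listed here by its locus code, gave 304, 299 and 211 at 24 h, against 84.2, 20.4 and 84.4 at 12 h (1.89 ± 0.308, adjusted p = 1.84e-04). These 3 genes kept their call when any 1 array was left out.

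The other 3 risers of the list rested on particular arrays. HTR12, the centromeric form of histone H3, gave 220, 161 and 134 at 24 h, against 31, 97.7 and 57.8 at 12 h, a change of 1.26 ± 0.298 (adjusted p = 0.00737). AT1G63100 changed by 1.35 ± 0.3 (adjusted p = 0.00442). Both calls were lost without root 24 h replicate 1, where the changes were 1.08 for HTR12 (adjusted p = 0.0687) and 1.11 for AT1G63100 (adjusted p = 0.0572). BUBR1, a kinase of the spindle checkpoint, changed by 1.29 ± 0.41 (adjusted p = 0.0469). Its call failed without any 1 of 5 arrays: the change was 0.75 without root 12 h replicate 2, 1.27 without 12 h replicate 3, and 1.04, 1.35 and 1.48 without 24 h replicates 1, 2 and 3. Across the list, between 3 and 7 of 8 members were called upward when 1 array was left out, the 3 without root 24 h replicate 1 and the 7 without root 12 h replicate 1.

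Several division genes outside that list were among the largest rises with a symbol. TOPII, the DNA topoisomerase that untangles sister chromatids, gave 637, 610 and 582 at 24 h, against 119, 64.7 and 183 at 12 h. The 24 h arrays lay close together and well above the 12 h arrays, with a change of 2.22 ± 0.303 (adjusted p = 1.92e-05). UBC20, a ubiquitin-conjugating enzyme whose RNA is known to mark dividing cells, gave 2041, 1666 and 1332 at 24 h, against 649, 355 and 432 at 12 h (1.79 ± 0.202, adjusted p = 1.29e-06). 3xHMG-box2, which binds condensed chromosomes, gave 971, 582 and 668 at 24 h, against 334, 81.7 and 207 at 12 h (1.87 ± 0.274, adjusted p = 4.99e-05). In all 3 genes, no 24 h array was as low as any 12 h array, and the call held with any 1 array left out.

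KINESIN-12B, a motor of the phragmoplast that builds the new cell wall, gave 198, 202 and 156 at 24 h, against 79.2, 27.3 and 60 at 12 h. It rose by 1.47 ± 0.258 (adjusted p = 4.31e-04), while the other measured gene of the kinesin list, KINESIN-13A, changed by 0.13 (adjusted p = 0.686). HTB2, a histone H2B, gave 1232, 988 and 1116 at 24 h, against 662, 423 and 588 at 12 h, and rose by 0.99 ± 0.191 (adjusted p = 0.00121). Of the 5 measured tubulins, 2 rose and 1 fell, where 4.94% of all tested probe sets rose and 3.69% fell. TUB7, a beta-tubulin, gave 2265, 2434 and 2458 at 24 h, against 1005, 398 and 1143 at 12 h (1.60 ± 0.237, adjusted p = 5.7e-05). TUA6, an alpha-tubulin, gave 11676, 11247 and 10242 at 24 h, against 5938, 3376 and 6070 at 12 h (1.15 ± 0.228, adjusted p = 0.00155). Both stood clear of their 12 h arrays, and these 4 rises held with any 1 array left out. TUB1 fell by 0.92, to 86, 114 and 130 at 24 h, against 117, 341 and 276 at 12 h, with groups that overlap. Dropping root 12 h replicate 2 (-0.64) or 3 (-0.78), or root 24 h replicate 1 (-0.78) or 2 (-0.95), ended its call.

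Of 4 measured replication genes 1 rose, where 4.94% of all tested probe sets did. PRL, a subunit of the MCM helicase that opens DNA for replication, gave 1239, 1074 and 1083 at 24 h, against 691, 357 and 798 at 12 h, and rose by 0.93 ± 0.21 (adjusted p = 0.005). The PRL change was 0.59 (adjusted p = 0.0945) once root 12 h replicate 2 was left out. ICU2 (0.48, adjusted p = 0.337), AT3G42660 (0.56, adjusted p = 0.131) and PSF2 (0.31, adjusted p = 0.54) were not called. The cyclin-dependent kinase inhibitor SIM changed by 0.05 (adjusted p = 0.945).

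Some of these division genes were called lower at 12 h than at 0 h, as 15.5% of all tested probe sets were. TOPII, AUR2, UBC20, 3xHMG-box2, KINESIN-12B, HTB2 and TUA6 were lower by between 0.66 and 1.18, and so counted as reversals. In each of them replicate 2 was the lowest 12 h array, which enlarges both the earlier fall and the later rise. No refit of the earlier change without that array is given here. For TOPII the 0 h signals (137, 306 and 276) overlapped those at 12 h. AUR1, TUB7, HTR12, AT4G14330 and PRL were not called in that earlier change and counted as starts. In the later arrays, all 8 list members were called higher at 48 h than at 0 h, with a median of 1.31. Of all tested probe sets, 31.6% were called so. That difference uses neither the 12 h nor the 24 h arrays, but its test shares their spread through the common fit.

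**Figure D2:**
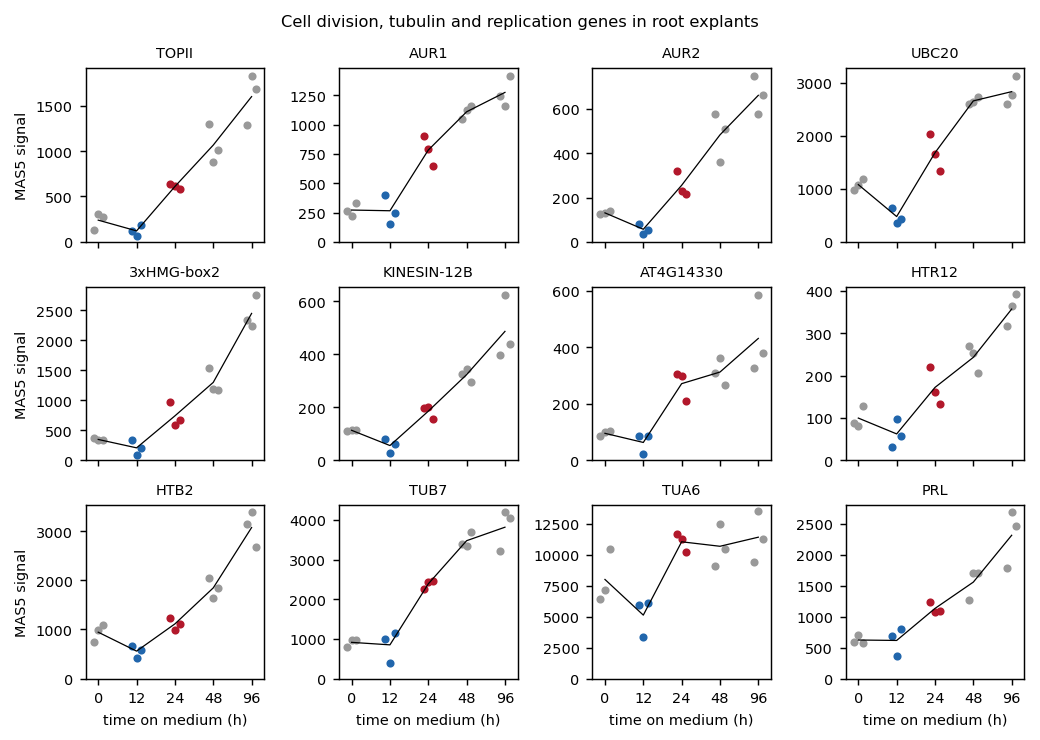
MAS5 signal (y axis, linear, a scale for each panel) in each of the 3 root arrays at 0, 12, 24, 48 and 96 h (x axis, evenly spaced), for 12 genes of division, tubulin and replication; red points are 24 h, blue points 12 h, grey points the other times, and the line joins the means. In each panel the 3 points at 24 h lie above the 3 at 12 h, and for TOPII the 24 h points run from 582 to 637.

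Among the rises that started in this interval, ATLP-1 was the largest with a symbol, and its call held with any 1 array left out. This thaumatin-like protein gave 2482, 1521 and 1574 at 24 h, against 187, 138 and 219 at 12 h, a change of 3.19 ± 0.246 (adjusted p = 1.34e-09). Its 0 h signals were 212, 231 and 430, so the gene had not moved by test before 12 h (-0.58, adjusted p = 0.064). EXPB2, a beta-expansin that loosens cell walls, gave 2373, 264 and 372 at 24 h, against 102, 27.5 and 40.5 at 12 h (3.15 ± 0.595, adjusted p = 9.67e-04). The 24 h replicate 1 was far above the other 2, and the change was 2.21 without it and 3.74 without 24 h replicate 2. At 48 h the same gene gave 11203, 3818 and 10438, higher again by test than at 24 h. SAG29, a sugar transporter of the SWEET family, gave 1098, 297 and 310 at 24 h, against 67, 13.8 and 67.6 at 12 h (2.90 ± 0.513, adjusted p = 4.8e-04), and without 24 h replicate 1 the change was 2.30.

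The serine carboxypeptidase-like gene scpl20 gave 1085, 564 and 409 at 24 h, against 231, 140 and 156 at 12 h (1.76 ± 0.286, adjusted p = 1.84e-04). The MAP kinase gene ATMPK13 gave 345, 230 and 184 at 24 h, against 60.7, 32.9 and 70.4 at 12 h (1.84 ± 0.408, adjusted p = 0.0044). Neither pair of groups overlapped. CCL, which is known to follow a daily rhythm of RNA decay, gave 195, 89.8 and 199 at 24 h, against 41.5, 37.3 and 28.4 at 12 h (1.61 ± 0.397, adjusted p = 0.00988). Dropping root 24 h replicate 1 (1.45, adjusted p = 0.0708) or 3 (1.44, adjusted p = 0.051) ended the CCL call. CR4, a receptor kinase of root patterning, rose by 1.07 ± 0.298 (adjusted p = 0.0221), with signals of 41.9, 64 and 51.9 at 24 h and of 17.3, 20.3 and 4.4 at 12 h, all below the 87.4 used as the filter on dim probe sets. The CR4 call failed when root 12 h replicate 3 (0.86), or root 24 h replicate 2 (0.96) or 3 (1.07, adjusted p = 0.0556), was dropped.

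Continuing rises had begun in the first 12 h. PUCHI, an AP2-type factor that shapes the young lateral root primordium, gave 1753, 1384 and 1219 at 24 h, against 398, 127 and 270 at 12 h, with 101, 91.1 and 114 at 0 h. It rose by 2.47 ± 0.325 in the step (adjusted p = 1.4e-05), after 1.09 (adjusted p = 0.00908) in the earlier change, and the difference between the 2 changes (1.38) was not called. PR-1-LIKE, a relative of a pathogenesis-related protein, gave 19522, 17115 and 12199 at 24 h, against 5716, 470 and 3756 at 12 h (2.86 ± 0.545, adjusted p = 0.00104). Its 12 h replicate 2 lay near the 0 h signals of 120, 429 and 421, and the change was 1.78 without that array and 3.55 without 12 h replicate 1. PAP20, a purple acid phosphatase, gave 2302, 1440 and 1121 at 24 h, against 373, 63.4 and 269 at 12 h (2.88 ± 0.392, adjusted p = 1.92e-05), and 2.21 without 12 h replicate 2.

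GH3.1, which belongs to the enzymes that conjugate auxin to amino acids, gave 1646, 1356 and 1558 at 24 h, against 729, 145 and 725 at 12 h (1.76 ± 0.481, adjusted p = 0.0202). Dropping root 12 h replicate 2 gave 1.04 (adjusted p = 0.273), dropping root 24 h replicate 1 gave 1.70 (adjusted p = 0.0857) and dropping its replicate 3 gave 1.74 (adjusted p = 0.0546), none of them called. The expansin EXPA15 rose by 1.51 ± 0.362 (adjusted p = 0.00815) and the membrane protein gene HHP2 by 1.42 ± 0.363 (adjusted p = 0.0129). EXPA15 changed by 0.93 and HHP2 by 1.15 when root 12 h replicate 2 was dropped, and by 1.26 and 1.17 when root 24 h replicate 1 was, with no call in these 4 fits. The glycosyltransferase gene UGT88A1 rose by 1.13 ± 0.23 (adjusted p = 0.00202) to 980, 571 and 696 at 24 h, against 247, 400 and 338 at 12 h, and held with any 1 array left out.

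Other reversing rises included the cell-wall genes TBL36, GH9B13 and XTH20, and also KICP-02. TBL36, of a family that acetylates wall polymers, gave 8850, 4577 and 4560 at 24 h, against 1538, 796 and 1664 at 12 h (2.15 ± 0.286, adjusted p = 1.54e-05). GH9B13, a glycosyl hydrolase of the cellulase family, gave 950, 666 and 750 at 24 h, against 209, 86.9 and 393 at 12 h (1.88 ± 0.325, adjusted p = 3.84e-04). Both held with any 1 array left out. XTH20, a xyloglucan-remodelling enzyme, gave 934, 894 and 846 at 24 h, against 441, 183 and 411 at 12 h, and rose by 1.40 ± 0.333 (adjusted p = 0.00737), but by 1.03 (adjusted p = 0.111) without root 12 h replicate 2. KICP-02 rose by 1.15 ± 0.3 (adjusted p = 0.0145) to 143, 77.7 and 116 at 24 h, against 37, 46.8 and 28.7 at 12 h. Dropping root 12 h replicate 3 (1.04) or root 24 h replicate 1 (0.99) ended the KICP-02 call.

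Heat-shock genes fell together. All 8 measured genes of a heat-shock list fell, where 3.69% of all tested probe sets did, with a median of -1.88 and a range of -2.51 to -1.36. Of these, AT2G29500 held with any 1 array left out: it gave 1001, 2057 and 2281 at 24 h, against 4383, 10258 and 7777 at 12 h (-2.06 ± 0.35, adjusted p = 3.2e-04). The largest fall was that of AT1G52560, with 126, 645 and 672 at 24 h, against 886, 4835 and 2830 at 12 h (-2.51 ± 0.56, adjusted p = 0.00458). ATHSP22.0, a small heat-shock protein, gave 70.4, 188 and 162 at 24 h, against 261, 888 and 791 at 12 h (-1.96 ± 0.54, adjusted p = 0.0211). Fes1A, which regulates the chaperone HSP70, gave 763, 1952 and 1710 at 24 h, against 2211, 4780 and 4195 at 12 h (-1.36 ± 0.333, adjusted p = 0.00939). In each of these 4 genes the 24 h arrays lay below the 12 h arrays, replicate 1 was the lowest at both times, and at 12 h replicate 2 was the highest.

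The heat-shock calls depended on single arrays. The list had 8 falls without root 12 h replicate 1, 1 without 12 h replicate 2 and 4 without 12 h replicate 3, and 1, 7 and 5 without root 24 h replicates 1, 2 and 3, while the median stayed between -2.31 and -1.56. With root 12 h replicate 2 left out, the change was -1.98 for AT1G52560, -1.65 for ATHSP22.0 and -1.14 for Fes1A; without root 24 h replicate 1 it was -1.77, -1.59 and -0.95 for the same genes, and without root 12 h replicate 3 that of ATHSP22.0 was -1.73. AT1G53540 and AT2G29500 had risen before 12 h, and the other 6 genes were not called in that earlier change and counted as starts. At 0 h ATHSP22.0 already gave 929, 565 and 245, and Fes1A 3365, 2262 and 1280, both overlapping their 12 h signals. The step differed by test from the earlier change for Fes1A, but not for ATHSP22.0 (-2.12, adjusted p = 0.123). At 48 h against 0 h, in the same fit, all 8 were called lower, with a median of -2.81. Of all tested probe sets, 19.7% were called lower there. HSA32 (-1.55 ± 0.391, adjusted p = 0.0116) and Hop3 (-1.80 ± 0.548, adjusted p = 0.0378), which are also known for heat stress, fell outside that list. The HSA32 call was lost without root 12 h replicate 2 (-1.18) or 3 (-1.37) or root 24 h replicate 1 (-1.37), and the Hop3 call without root 12 h replicate 2 (-1.33) or 3 (-1.69) or root 24 h replicate 1 (-1.46) or 2 (-1.92).

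**Figure D3:**
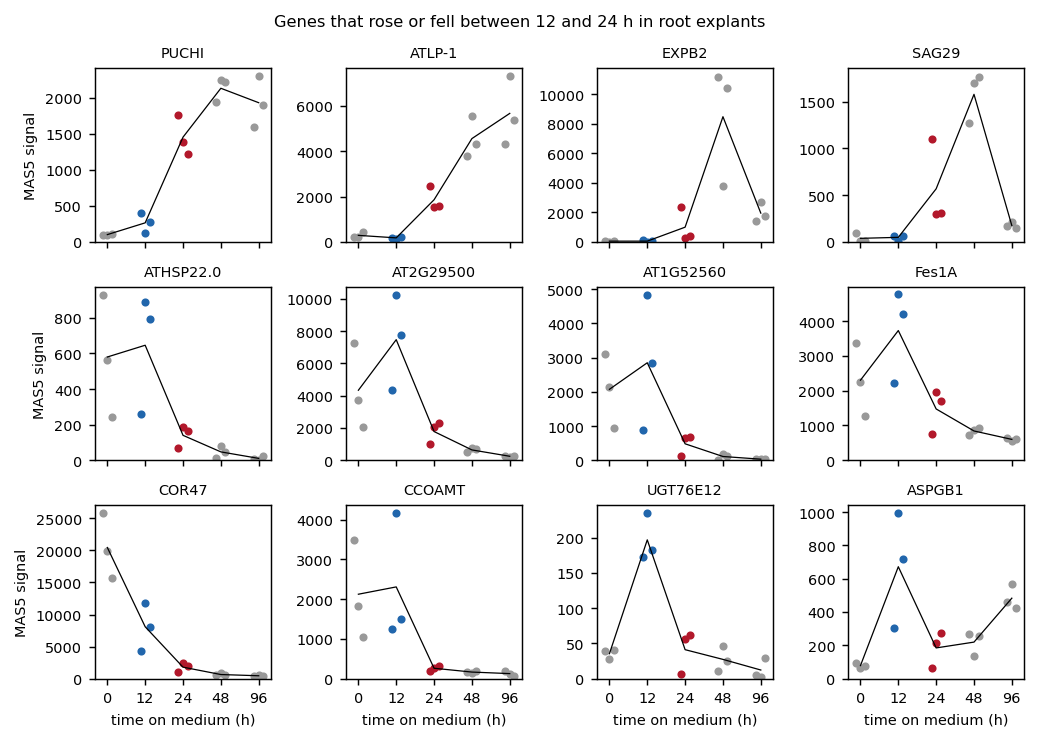
MAS5 signal (y axis, linear, a scale for each panel) in each of the 3 root arrays at 0, 12, 24, 48 and 96 h (x axis, evenly spaced) for 4 rises in the top row and 8 falls below; red points are 24 h, blue points 12 h, grey points the other times, and the line joins the means. ATLP-1 is flat until 12 h and at 1521 to 2482 at 24 h, and the 4 heat-shock genes of the middle row spread widely at 12 h.

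Other falls that held with any 1 array left out came from several courses. COR47, a dehydrin of cold and drought responses, continued downward, with 999, 2381 and 1956 at 24 h, against 4370, 11852 and 8040 at 12 h, and 25844, 19893 and 15648 at 0 h. It fell by 2.15 ± 0.322 in the step (adjusted p = 6.27e-05). CCOAMT, a gene of the caffeoyl-CoA O-methyltransferase type, started to fall, with 196, 266 and 315 at 24 h, against 1249, 4167 and 1506 at 12 h (-2.86 ± 0.543, adjusted p = 0.00102). The calmodulin-like gene CML42 continued downward, with 560, 715 and 833 at 24 h, against 2094, 2336 and 1286 at 12 h (-1.38 ± 0.288, adjusted p = 0.00254). RALFL31, a signalling peptide of the RALF type, reversed, with 352, 585 and 516 at 24 h, against 1151, 1533 and 1203 at 12 h (-1.40 ± 0.242, adjusted p = 3.84e-04). pEARLI4 started to fall, with 190, 327 and 354 at 24 h, against 540, 883 and 714 at 12 h (-1.25 ± 0.229, adjusted p = 7.03e-04). In all 5, no 24 h array reached the lowest 12 h array.

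Starting falls also took in GAT1_2.1 (-2.93 ± 0.712, adjusted p = 0.00883), the jasmonate-regulated gene JRG21 (-1.48 ± 0.453, adjusted p = 0.0385) and PUB22, a ubiquitin ligase that damps immune signalling (-1.42 ± 0.339, adjusted p = 0.00769). GAT1_2.1 gave 48, 195 and 214 at 24 h, against 279, 4329 and 1191 at 12 h, without overlap but with 12 h replicate 2 far above the other 2. Its change was -1.98 (adjusted p = 0.147) when root 12 h replicate 2 was dropped, and -2.37 (adjusted p = 0.091) when root 24 h replicate 1 was. JRG21 lost its call without root 12 h replicate 2 (-1.13) or 3 (-1.44) or root 24 h replicate 1 (-0.93), and PUB22 without root 24 h replicate 1 (-1.28, adjusted p = 0.0595). PUB22 gave 597, 557 and 1159 at 24 h, against 2071, 2052 and 1852 at 12 h, and 3173, 2701 and 2836 at 0 h. From 0 to 12 h, GAT1_2.1 changed by -1.12 (adjusted p = 0.229) and PUB22 by -0.54 (adjusted p = 0.222), neither called. For both genes the difference between the step and that earlier change was not called (-1.82 and -0.88), so an earlier fall is not excluded.

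Among continuing falls, MSRB9, a methionine sulfoxide reductase, gave 141, 305 and 472 at 24 h, against 562, 2737 and 1525 at 12 h, and 13120, 11684 and 13216 at 0 h. It fell by 2.19 ± 0.521 in the step (adjusted p = 0.00763) after -3.23 in the earlier change, and the call failed with root 12 h replicate 2 (-1.68) or root 24 h replicate 1 (-1.75) dropped. ATGSTF13, a glutathione transferase, fell by 1.60 ± 0.393 (adjusted p = 0.00928), and by 1.47 (adjusted p = 0.0747) without root 12 h replicate 2. Its 24 h signals of 16.9, 6.1 and 9.3 were near background, against 42.3, 97.1 and 104 at 12 h. The lipocalin TIL fell by 1.01 ± 0.238 (adjusted p = 0.00694) to 3522, 6041 and 4648 at 24 h, against 8054, 11127 and 9158 at 12 h. TIL changed by -0.89 with root 12 h replicate 2 dropped and by -0.82 with root 24 h replicate 1 dropped, and neither was called. BCAT4, which starts the side-chain elongation of methionine-derived glucosinolates, fell by 2.02 ± 0.594 (adjusted p = 0.0307). Its 24 h signals were 50.7, 120 and 215, against 114, 1694 and 672 at 12 h, and the groups overlapped. The BCAT4 call was lost without root 12 h replicate 2 (-1.19) or 3 (-1.84) or root 24 h replicate 1 (-1.57) or 2 (-2.05). The SKU5-similar gene sks15 also fell (-1.54), to 8.4, 46.5 and 13.8 at 24 h, against 66.8, 99.8 and 148 at 12 h. Those 24 h signals were below the filter on dim probe sets. ZCF37 fell too (-1.51). Of these, sks15 lost its call without root 12 h replicate 2 (-1.55) or 3 (-1.31) or root 24 h replicate 1 (-1.31) or 3 (-1.43), and ZCF37 without root 12 h replicate 2 (adjusted p = 0.376) or 3 (-1.52) or root 24 h replicate 1 (-1.32), 2 (-1.70) or 3 (-1.50).

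Reversing falls followed a called rise in the first 12 h. SBT3.5, a subtilisin-like protease, gave 197, 569 and 499 at 24 h, against 1035, 1600 and 1294 at 12 h, and 164, 43 and 12.9 at 0 h, so at 24 h it was still 2.44 above 0 h. ASPGB1, which releases ammonium from asparagine, gave 65.9, 216 and 271 at 24 h, against 303, 997 and 717 at 12 h, and at 24 h was no longer called against 0 h (0.88). UGT76E12 gave 5.8, 56.1 and 61.2 at 24 h, against 172, 235 and 183 at 12 h, with 38.9, 27.1 and 39.9 at 0 h. Its signals at 24 h and 0 h were all below the filter on dim probe sets, so their difference is not read. The step changes were -1.69 ± 0.498 for SBT3.5 (adjusted p = 0.0311), -1.77 ± 0.386 for ASPGB1 (adjusted p = 0.00367) and -1.94 ± 0.485 for UGT76E12 (adjusted p = 0.0107). Dropping root 12 h replicate 2, the changes in that order were -1.54, -1.42 and -1.82, dropping root 24 h replicate 1 they were -1.24, -1.25 and -1.43, and none of these 6 was called, nor was SBT3.5 without root 12 h replicate 3 (-1.69, adjusted p = 0.0713). The falls of NdhL, a reversal (-1.14), and of CYP71B34, a start (-1.08), lay near background, at no more than 23.3 at 24 h and 47.6 at 12 h. NdhL lost its call without root 12 h replicate 2 (-1.13) or 3 (-1.06) or root 24 h replicate 1 (-1.18) or 2 (-1.08), and CYP71B34 without root 24 h replicate 2 (-0.93) or 3 (-0.94).

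Among enzymes that modify small molecules most genes were not called. Of 31 measured UDP-glycosyltransferases, which attach sugars to hormones and defence compounds, 1 rose (UGT88A1), 6 fell and 24 were not called, with a median of -0.55, where 4.94% of all tested probe sets rose and 3.69% fell with a median of 0.02. UGT73D1 fell by 1.60 ± 0.39 (adjusted p = 0.009) to 125, 224 and 255 at 24 h, against 373, 1144 and 586 at 12 h, and the other falls were UGT76E12, UGT73B5, UGT78D2, UGT74B1 and UGT74D1, the last 4 between 0.76 and 1.11 in size. When 1 array was left out, the list had 5, 0 and 4 falls without root 12 h replicates 1, 2 and 3, and 0, 4 and 5 without root 24 h replicates 1, 2 and 3. UGT73D1 changed by -1.18 without root 12 h replicate 2 and by -1.33 without root 24 h replicate 1, both not called. Of 11 glutathione transferases none rose, 2 fell, GSTU26 (-1.21) and GSTU22 (-1.04), and 9 were not called. Between 0 and 3 of them fell when 1 array was left out, the 0 without root 24 h replicate 1. GSTU26 changed by -0.77 with root 12 h replicate 2 dropped, by -1.06 with root 24 h replicate 1 dropped and by -1.17 with its replicate 3 dropped; GSTU22 changed by -0.78 and -1.03 without root 12 h replicates 1 and 3 and by -0.90 and -1.01 without root 24 h replicates 1 and 2, none of them called. Of 12 cytochrome P450 genes 1 fell, CYP71B34, whose root signals lay near background as given above, and 11 were not called.

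Several lists with many calls in the first 12 h had fewer in the step, as had all tested probe sets (37.3% and 8.63%). Of 12 measured ribosome-biogenesis genes, 10 had risen by 12 h (21.7% of all tested rose) and 0 were called in the step, where 8.63% of all tested probe sets were. A count of 0 among 12 genes does not set the list apart from that share. The 12 changes lay between -0.04 and 0.44, and over all tested probe sets 3757 reached an unadjusted p below 0.05. The RNA polymerase I subunit NRPA1 gave 587, 818 and 772 at 24 h, against 810, 592 and 850 at 12 h, with overlapping groups (-0.04, adjusted p = 0.945). Its partner NRPA2 gave 1486, 1672 and 1696 at 24 h, against 1791, 1192 and 1793 at 12 h (0.05, adjusted p = 0.941).

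LBD16, an auxin-induced factor that drives both lateral roots and callus, gave 1961, 2156 and 1869 at 24 h, against 2530, 1085 and 2088 at 12 h, and did not pass the test (0.15, adjusted p = 0.839). LBD29 gave 3504, 3017 and 1939 at 24 h, against 2894, 341 and 1185 at 12 h (1.35 ± 0.442, adjusted p = 0.0543). Its groups overlapped, and 12 h replicate 2 was the low array. Of the 9 auxin-response genes, 7 had risen by 12 h, and in the step 1 rose (GH3.1) and none fell, where 4.94% of all tested probe sets rose. Their median change was 0.88, and the number that rose was 4 without root 12 h replicate 1, 0 and 2 without 12 h replicates 2 and 3, and 0, 1 and 0 without root 24 h replicates 1, 2 and 3. The step values of GH3.3 (0.88, adjusted p = 0.125), WES1 (1.02, adjusted p = 0.0544) and HAT2 (-0.04, adjusted p = 0.955) were not called. GH3.3 gave 11785, 8959 and 10160 at 24 h, against 10416, 2188 and 7412 at 12 h, again with 12 h replicate 2 lowest. Of the 8 lateral-root and root-patterning genes, PUCHI rose, against 4.94% of all tested probe sets. CR4 was also called, but as given above its signals in all 6 arrays were below the filter and its call failed in 3 of 6 fits.

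Of 15 measured expansins, 3 rose (EXPB2, EXPA15 and EXPA20), 1 fell (EXPA9) and 11 were not called, with a median of 0.00, where 4.94% of all tested probe sets rose and 3.69% fell. The number that rose was 1 without root 12 h replicate 2. EXPA20 rose by 0.86 ± 0.235 (adjusted p = 0.0203), and EXPA9 fell by 1.08 ± 0.283 (adjusted p = 0.0148) to 694, 772 and 791 at 24 h, against 1858, 1417 and 1606 at 12 h. The EXPA20 call was lost without root 12 h replicate 2 (0.62) or root 24 h replicate 2 (0.78) or 3 (0.83), and the EXPA9 call without root 24 h replicate 1 (-1.03). EXPA4, which had risen by 4.80 before 12 h, gave 15231, 14171 and 14786 at 24 h, against 22146, 12837 and 15991 at 12 h (-0.17, adjusted p = 0.733). The root hair expansins EXPA7 (-0.98, adjusted p = 0.337) and EXPA18 (-0.86, adjusted p = 0.431) spread too widely for a call. Of 6 xyloglucan enzymes, XTH20 rose and XTH19 fell (-0.99 ± 0.28, adjusted p = 0.0245). XTH19 was not called without root 12 h replicate 2 (-0.87) or 3 (-0.88) or root 24 h replicate 1 (-0.73) or 2 (-1.02).

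The other stress and carbon lists were short, with few members measured, so that a count of 0 does not set them apart from the 8.63% called overall. None of 4 hypoxia-response genes was called, though all 4 had fallen by 12 h, as 15.5% of all tested probe sets had. Of 5 wound and jasmonate genes 1 was called, AT5G61890 (-0.83 ± 0.243, adjusted p = 0.0296), whose call was lost without each of root 12 h replicates 1 (-0.77), 2 (-0.88) and 3 (-0.84) and root 24 h replicates 1 (-0.65) and 2 (-0.86). None of 6 genes of carbon remobilisation and sugar starvation, none of 4 leaf markers, none of 5 photosystem genes and neither of the type-A response regulators ARR15 and RR16 was called. Of 2 measured genes on a list for folding in the endoplasmic reticulum, BZIP60 fell by 0.79 (adjusted p = 0.00871), a call lost without root 12 h replicate 2 (-0.63) or root 24 h replicate 1 (-0.76).

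Of the remaining lists, none of 3 evening clock genes was called, the morning clock gene AT5G52660 fell (-1.03, but not called without root 12 h replicate 2 at -0.91 or root 24 h replicate 3 at -0.82), and 1 of 3 genes of methionine-derived glucosinolates fell, which is BCAT4.

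**Figure D4:**
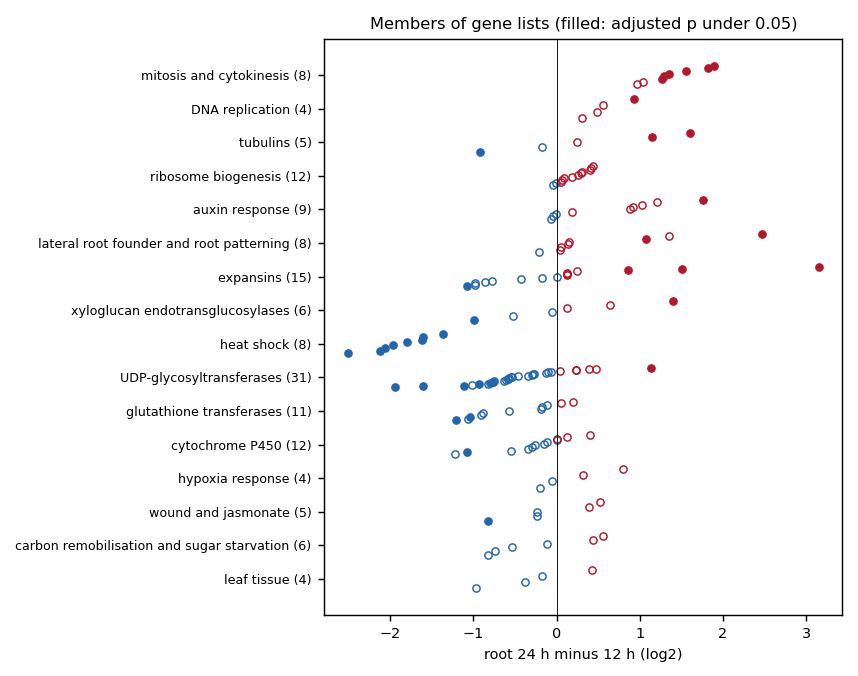
Each circle is 1 gene of a list, placed by its root 24 h minus 12 h change (x axis, log2); the lists run down the y axis with the number of measured genes, red circles are changes above 0, blue ones below, and filled circles passed an adjusted p of 0.05. All 8 heat-shock genes are filled and below 0, 6 of 8 mitosis genes are filled and above 0, and none of the 12 ribosome-biogenesis genes is filled.

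The same interval in aerial explants moved fewer probe sets. There 149 rose (0.889%) and 68 fell (0.406%) between 12 and 24 h, 217 in all (1.29%). Set against each other, the root and aerial changes differed by test for 709 probe sets (4.23%), with the root change higher for 380 (2.27%) and lower for 329 (1.96%). The higher ones numbered 139 when root 24 h replicate 1 was dropped, the lower ones 138 when root 12 h replicate 2 was, and dropping root 12 h replicate 1 gave 588 and 509. Of 8 mitosis genes, 4 had a called difference, all with the root change higher, and the list's median was 0.07 in aerial explants, where none was called.

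TOPII gave 82.4, 140 and 172 in aerial explants at 24 h, against 233, 87.1 and 120 at 12 h, with overlapping groups, and the root change exceeded the aerial one by 2.31 ± 0.429 (adjusted p = 0.00227). UBC20 gave 421, 428 and 376 in aerial explants at 24 h, against 461, 351 and 276 at 12 h, and the changes differed by 1.60 ± 0.285 (adjusted p = 0.00167). ATLP-1 gave 692, 937 and 791 in aerial explants at 24 h, against 684, 793 and 506 at 12 h, and the changes differed by 2.90 ± 0.347 (adjusted p = 2.07e-05). These differences held with any 1 of the 12 arrays of the contrast left out, as did those of AT4G14330 (2.01), AT1G63100 (2.01), TUB7 (1.62) and TUA6 (1.46). The heat-shock genes AT2G29500 and AT1G52560 were low in aerial explants at both times, with at most 131 and 28.1, and their differences of -2.04 (adjusted p = 0.0186) and -2.75 (adjusted p = 0.0443) were lost without root 12 h replicate 2 (-1.77 and -2.22) or root 24 h replicate 1 (-1.67 and -2.02). The AT1G52560 difference was also lost without root 12 h replicate 3 (-2.60), without any aerial 12 h replicate (-2.64, -2.79 and -2.82) and without aerial 24 h replicates 1 (-2.74) and 2 (-2.49).

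GI, a core component of the circadian clock, fell in aerial explants, and its root and aerial changes differed by test. It gave 906, 904 and 1126 in root explants at 24 h, against 235, 518 and 362 at 12 h (1.40, adjusted p = 0.0543, not called), and 34.8, 130 and 201 in aerial explants at 24 h, against 317, 740 and 686 at 12 h (-2.19, adjusted p = 0.0115). The difference was 3.59 ± 0.651 (adjusted p = 0.00177) and held with any 1 array left out. CCL, also rhythmic, differed by 2.55 ± 0.562 (adjusted p = 0.00974) and held likewise. Its aerial change (-0.94, adjusted p = 0.308) was not called. The CCL signals in aerial explants were 6871, 9058 and 6858 at 24 h, against 16847, 14573 and 12326 at 12 h. In root explants its 12 h signals were at most 41.5, below the filter on dim probe sets. The 12 h and 24 h harvests may fall at different times of day, which the labels do not give, and the part of time of day in any change was not tested.

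**Figure D5:**
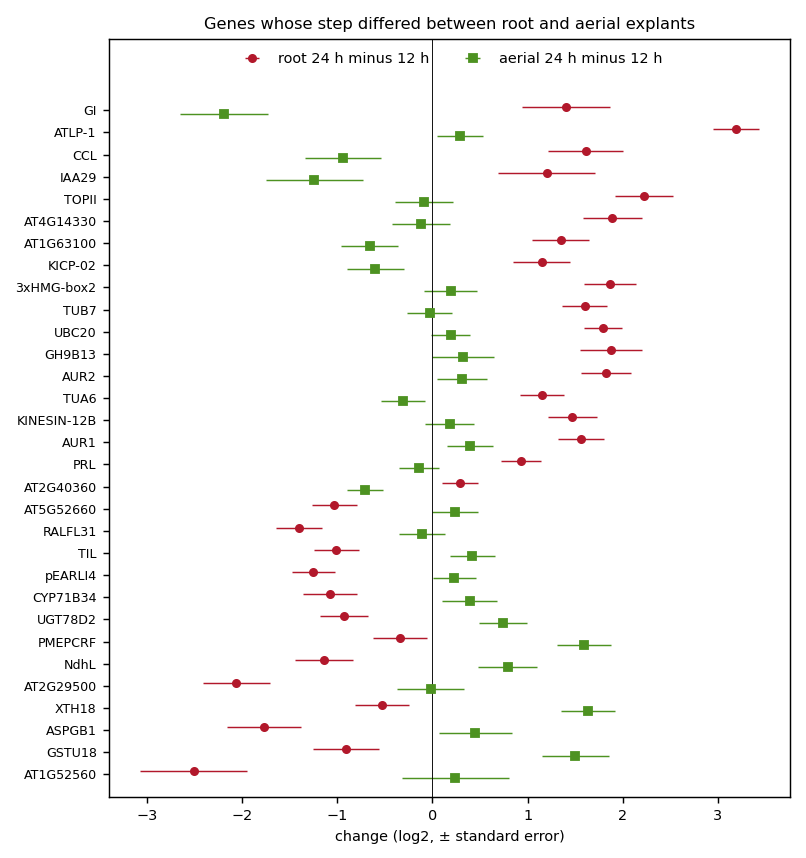
Change from 12 to 24 h (x axis, log2, mean ± standard error, 3 arrays a group) in root explants (red circles) and in aerial explants (green squares) for the 31 genes of the text and its lists whose root and aerial changes differed by test, ordered by the difference from GI (3.59) at the top to AT1G52560 (-2.75) at the bottom. For TOPII, UBC20 and TUB7 the aerial change lies near 0, and GI, CCL and IAA29 lie on opposite sides of 0.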

How the data were processed

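Total RNA (about 5 µg for each array, per the labels' protocols) was hybridised to 30 one-colour arrays, whose groups were read from the titles. The deposited values are MAS5 intensity on a linear scale, 1 per probe set, as the authors deposited them. Per the submitters' processing notes the signals are from MAS5. The sources used here do not give a version. Array means, trimmed at both ends, were 500.0 or 500.1, and no pair of arrays was identical.

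Of 22810 probe sets, 64 controls were left out, and those with at least 3 arrays above 87.4 (the 40th percentile of all values) were tested, 16765 in all. Values were analysed as log2(signal + 22), 22 being the 20th percentile, so folds of dim genes are understated. Group means of all 30 arrays (10 groups) were fitted with limma 3.58.1 in R 4.3.3 (lmFit, eBayes with trend, two-sided, 28.6 degrees of freedom), with Benjamini-Hochberg adjustment over all tested probe sets in each comparison. The tables and plots were made with Python 3.11.15, pandas 2.3.3 and matplotlib 3.10.9, and the fit was tested on simulated data. The labels call replicates biological without saying from which cultures they came, so p-values cover the spread among these samples alone.

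Names came from the platform annotation and the RefSeq gene table (13513 probe sets with 1 gene, 503 with several, 8730 unnamed here), and where a gene had several probe sets the brightest on average was kept. The IDs of 593 tested probe sets end in _s_at or _x_at, which can hybridise with related genes. Named genes are those with a symbol, called, at least 2-fold and without overlap: the 10 largest rises and falls, the 6 largest each way in each course and in the difference from aerial explants, plus list members. The rule named 42 genes, of which 20 kept the call with any 1 array left out (15 of 20 rises, 5 of 22 falls). The comparison, the members, the lists and the rule were chosen with earlier results of these data known. The lists hold locus codes from general knowledge and symbols of gene families. Members not measured may lie on unnamed probe sets. Alternatives were pseudocounts, filters, scalings, the variance model, a replicate block, fewer arrays and each array left out.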

Additional observations from a re-analysis of the deposited data

Results flagged for a closer look

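The change from 12 to 24 h differed by test between root and aerial explants for 380 probe sets with the root change higher and 329 with it lower. Among the genes of the text and its lists this held for 31, and 15 of them kept the call in all 12 fits that leave out 1 array of the contrast. The differences below are root change minus aerial change in log2 units, with limma's adjusted p below 0.05.

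Cell division, replication and tubulin genes with a higher root change were TOPII (2.31), AT4G14330 (2.01), AT1G63100 (2.01), 3xHMG-box2 (1.69), TUB7 (1.62), UBC20 (1.60), AUR2 (1.52), TUA6 (1.46), KINESIN-12B (1.30), AUR1 (1.18) and PRL (1.07). Of these, 3xHMG-box2 lost the call without root 24 h replicate 1 (1.48, adjusted p = 0.0541). AUR2 lost it without root 12 h replicate 2 (1.32), root 24 h replicate 1 (1.36), aerial 12 h replicate 2 (1.32) or aerial 24 h replicate 1 (adjusted p = 0.06). The differences of KINESIN-12B, AUR1 and PRL were lost in 6 to 8 of the 12 fits, and their lowest values were 1.00, 0.86 and 0.73, each without root 12 h replicate 2.

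GI (3.59), ATLP-1 (2.90) and CCL (2.55) kept the call in all 12 fits. For CCL the root signals at 12 h were at most 41.5, below the filter on dim probe sets, and the aerial change was not called. IAA29 (2.45) and GH9B13 (1.56) lost it in 9 of them, with 1.96 and 1.05 without root 12 h replicate 2. KICP-02 (1.76) lost it without root 24 h replicate 1 (1.59) or aerial 12 h replicate 3 (1.59). AT2G40360 (1.01), on the ribosome-biogenesis list, lost it in 5 fits, with 0.74 without root 12 h replicate 2.

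Genes with a lower root change were AT1G52560 (-2.75), GSTU18 (-2.40), ASPGB1 (-2.23), XTH18 (-2.16), AT2G29500 (-2.04), NdhL (-1.93), PMEPCRF (-1.93), UGT78D2 (-1.67), CYP71B34 (-1.48), pEARLI4 (-1.48), TIL (-1.43), RALFL31 (-1.29) and AT5G52660 (-1.27). GSTU18, XTH18, PMEPCRF, NdhL, UGT78D2 and pEARLI4 kept the call in all 12 fits. NdhL passed the filter through the aerial arrays, with root signals of at most 5.3 at 24 h and 40.7 at 12 h, so its root change rests on values near background. The same holds for CYP71B34, with root signals of at most 23.3 at 24 h and 47.6 at 12 h. For XTH18 the aerial signals at 24 h were 4762, 3598 and 3793, above all of 1041, 1463 and 1400 at 12 h, while the root change was -0.53 and not called. PMEPCRF had aerial signals of 1065, 1089 and 1014 at 24 h, against 329, 315 and 368 at 12 h, and its root change of -0.34 was not called either. The other 7 lost the call in at least 2 fits, among them the fits that drop root 12 h replicate 2 or root 24 h replicate 1 for AT1G52560, ASPGB1, AT2G29500, TIL and RALFL31. CYP71B34 and AT5G52660 lost it in 7 fits each.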

How the results depend on the processing

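No named gene and no list member that was called changed direction under any alternative tried. Fitted on the 6 arrays alone, 314 rose and 269 fell, and of 75 called genes named or listed 37 were no longer called. At least 2-fold, 455 rose. Called in all 6 fits without 1 array (chosen after seeing the data) were 254 rises and 116 falls, namely 141 and 38 starts, 37 and 44 continuations, and 76 and 34 reversals. With no pseudocount, continuing falls were 142 and reversing falls 101, and 22 of those 75 genes were no longer called. With both steps at least 2-fold, starting rises were 333, continuing rises 54 and falls 143, and reversing rises 68 and falls 73. Where a start also had to differ from the earlier change, 188 and 63 were left. Whether the replicate numbers pair the arrays was not settled. The r of deviations was 0.296, 0.098 and 0.117 for same-numbered 12 h and 24 h root arrays, and -0.227 to 0.145 for unlike-numbered ones. With the replicate block, 1046 rose, 810 fell and continuing rises were 209. Median centring moved the median of all probe sets by -0.132 in the earlier change and by 0.007 in the step.

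Leaving out 1 array, rises ran from 335 to 1039 and falls from 161 to 886. Starting rises ran from 192 to 702 and falls from 69 to 408, continuing rises from 48 to 155 and falls from 52 to 251, and reversing rises from 94 to 182 and falls from 40 to 227. The steps differed upward for 810 to 1213 probe sets (1245 in all arrays) and downward for 949 to 1459 (1521). The root change was higher than the aerial one for 139 to 588 and lower for 138 to 509. The share of rises also higher at 48 h than at 0 h ran from 70.2% to 84.7%, and that of falls also lower from 68.6% to 76.4%. With 3 arrays a group, their number limits what can be called, and dim genes depend on the pseudocount.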

Other observations

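Genes in this paragraph were picked after their values were seen, from the 125 called genes with a symbol. FU, a kinase needed for the cell plate in cytokinesis, gave 445, 356 and 359 at 24 h, against 154, 151 and 144 at 12 h, and rose by 1.25 ± 0.261 (adjusted p = 0.0027), with any 1 array left out too. RALFL34, a peptide of the RALF type known from lateral root formation, gave 862, 714 and 824 at 24 h, against 224, 422 and 412 at 12 h (1.18 ± 0.195, adjusted p = 2.15e-04), also with any 1 array left out, while its relative RALFL31 fell. CLE44, a peptide of the vascular stem cell niche, rose by 1.36 ± 0.357 (adjusted p = 0.0154), but by 0.70 (adjusted p = 0.243) without root 12 h replicate 2 and by 1.18 (adjusted p = 0.102) without root 24 h replicate 1. Of 17 tested genes with a serine carboxypeptidase-like symbol, 6 rose and 0 fell, with a median of 0.23, where 4.94% of all tested probe sets rose. Of these, scpl20 and scpl42 held with any 1 array left out, and scpl26, scpl29, scpl35 and scpl48 did not.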
